A study of Mus musculus with 6 samples.

Results

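The genes described here changed in the breast cancer line kept in the higher of 2 doses of hydrogen peroxide and stayed near the control in the line kept in the lower dose. They were chosen by their measured levels. Genes were kept when the mean over all libraries was at least 1 CPM (reads of a gene per 1000000 assigned reads), the lower-dose line lay within 0.25 of the control and the higher-dose line at least 1 away from it, both on log2(CPM + 0.5). An interval of 0.25 on that scale is 1.19-fold, and a step of 1 is 2-fold. This left 101 genes, 0.884% of the 11428 that reached 1 CPM and that are called tested genes below, out of 24454 in the deposited table. Of the 101, 42 were higher and 59 lower in the higher-dose line. All 6 libraries and all 3 contrasts between the lines entered the choice, so differences between lines are given for the 101 genes as a description, with no test.

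The cells are MTflEcad, a mouse epithelial line from a mammary tumour of the MMTV-Neu strain, in which the mouse mammary tumour virus promoter drives the Neu (ERBB2) oncogene in the mammary gland. The I80 line received 80 µM H2O2 and the DI150 line 150 µM H2O2 every day for 7 months. The PBS cells were the untreated control, labelled with the same 7 months. Each line gave 2 libraries of ribosome-depleted total RNA. The series calls them biological duplicates without stating if each came from its own 7-month culture. There is 1 line per dose, and effects of the dose and of that particular line cannot be told apart.

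Hydrogen peroxide is a cell-permeable oxidant that cells make and remove all the time. Long exposure is commonly used to obtain cells with altered oxidant handling, in part through the transcription factor NRF2 and its targets. Of the genes described here, many lie on the X chromosome. In cells with more than a single X chromosome, the noncoding RNA Xist coats and silences all but 1 of them, so most X-linked genes are read from 1 copy and some, such as Kdm6a, escape silencing.

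The libraries held 21017849 to 26608715 assigned reads, and 1 read was worth 0.0376 to 0.0476 CPM. All 8 epithelial markers were detected, with a summed level of 6523 and 6566 CPM in PBS. The same sum was 3132 and 3112 CPM in I80 and 3477 and 3156 CPM in DI150, where as in I80 Krt19 had no read and Cldn4 was under 1 CPM. The largest falls in CPM were those of Krt18 and Krt8. Krt18 was at 2795 and 2742 CPM in PBS, 960 and 976 in I80 but 988 and 852 in DI150. Krt8 was at 2018 and 1883, 674 and 716, and 612 and 568 CPM. Cdh1 was lower too, at 579 and 669, 400 and 405, and 388 and 374 CPM. Epcam was higher in DI150, at 1109 and 1002 CPM against 583 and 629 CPM in PBS. Markers of other cell types were low: 10 fibroblast markers summed to 21.8 to 24.4 CPM and 10 endothelial markers to 1.28 to 4.74 CPM. Within the fibroblast sum, Col1a2 was at 15.3 CPM in both PBS libraries and had no read elsewhere, and Pdgfra was at 5.04 and 5.5 CPM in PBS, 14.5 and 15.1 in I80 but 19 and 18.4 in DI150. The 18 immune markers summed to 86.7 and 103 CPM in PBS, 27.3 and 22.5 in I80 but 74.6 and 62.9 in DI150. Most of this sum came from Cd14. Reads of Csf1r, the next largest part in PBS, were found only in the untreated control, at 7.67 and 14.5 CPM. Ptprc, the pan-leukocyte antigen, stayed between 0 and 0.263 CPM and Tyrobp had no read. In bulk RNA, fewer cells that express a gene and less of its RNA per cell cannot be told apart.

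The DI150 libraries lay outside the range of all PBS and I80 libraries for 101 of the 101 genes, against 44.3% of tested genes. The interval around PBS that the rule sets for I80 holds 30.2% of tested genes. The limma test called 100 of them between DI150 and PBS (68.7% of tested genes were called) and 99 between DI150 and I80 (43.8%). Because the rule used all 3 contrasts, nothing is read from these counts or from the next one. The exceptions were Plb1, called in neither, and Mr1, not called between DI150 and I80. Between I80 and PBS, 4 of the 101 genes were called (66.4% of tested genes were), and these were Phf8, Ebp and Ccdc22, lower in I80, and Frmd4a, higher in I80. The 95% limma interval of the I80 to PBS difference reached a median of 0.39 to either side (0.14 to 1.09). It lay wholly within 1.5-fold for 69 genes and within 2-fold for 99. The rule itself set the centre of each interval close to PBS, and no share of tested genes is given. Nothing is therefore read from how many intervals lay within these limits.

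**Figure D1:**
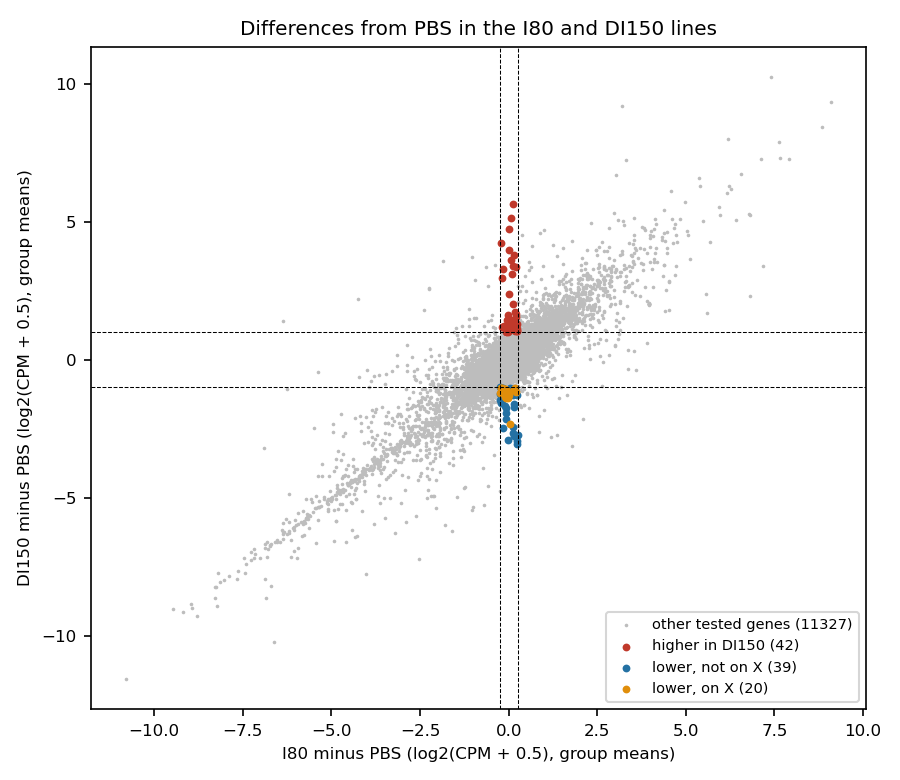
Difference of I80 from PBS (x axis) and of DI150 from PBS (y axis) for each tested gene, both as group means of log2(CPM + 0.5). The 42 higher genes (red), the 39 lower genes off the X chromosome (blue) and the 20 lower X-linked genes (orange) lie between the dashed lines at 0.25 on either side of 0 and beyond 1 or -1.

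Among the 42 higher genes, 15 had a mean under 1 CPM in both PBS and I80 and passed the 1 CPM limit through the DI150 libraries alone. Scn10a encodes Nav1.8, a voltage-gated sodium channel of sensory neurons (gene 20264, chromosome 9 of GRCm38.p6, 119608456 to 119719322). It had no read in either PBS library, 0 and 0.0824 CPM in I80, and 24.3 and 24.0 CPM in DI150. The DI150 mean stood at least 206-fold above PBS when 0 reads are set to a floor of 3 reads per library, or 0.113 to 0.143 CPM. Zfp366 (gene 238803, chromosome 13, 99184823 to 99247032), which encodes a zinc finger protein also known as DC-SCRIPT, had no read in PBS, 0.0390 and 0 CPM in I80 and 18.7 and 15.6 CPM in DI150, at least 147-fold above PBS. Lpl, the lipase that hydrolyses triglycerides of circulating lipoproteins, had no read in the 4 PBS and I80 libraries and reached 11.8 and 13.6 CPM in DI150, at least 108-fold higher than PBS. It is an adipocyte marker, but of the other adipocyte markers on the list Adipoq, Cfd, Pparg, Lep and Cidec had no read in any library, Fabp4 none in DI150, and Plin1 a level of 0.0476 CPM in 1 DI150 library and no read elsewhere.

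The other genes of this kind were chosen after their values were seen, since their mean over the 6 libraries was under 5 CPM. Gnai1, an inhibitory G protein alpha subunit, went from 0.0752 and 0.283 CPM in PBS and 0.0390 and 0.124 in I80 to 12.6 and 11.4 in DI150, 67.0-fold above PBS. Rbm20, a splicing regulator known from heart muscle, went from 0.113 and 0.202 CPM in PBS and 0.156 and 0.165 in I80 to 10.6 and 9.20 in DI150, 62.7-fold above PBS. Neither gene had a PBS or I80 library near a DI150 library. Tspan8, a tetraspanin of epithelial cell membranes and the only gene of the mammary luminal list among the 101, had no read in PBS and 6.47 and 4.81 CPM in DI150. The zinc finger gene Zfp618 had 0.0752 and 0.0404 CPM in PBS and 6.85 and 7.78 in DI150, a ratio of pooled reads of 126 (95% counting interval 42.8 to 614). Tdrkh, a Tudor domain protein of the piRNA pathway, gave 0.0752 and 0.0404 CPM in PBS, no read in I80 and 5.04 and 4.88 in DI150. Ptgds, which makes prostaglandin D2, stood 40.0-fold higher in DI150 (6.99 and 5.61 CPM) than in PBS (0.113 and 0.202). The sarcomere genes Tnni1 and Myom1 were at 0.526 and 0.607 CPM and at 0.376 and 0.687 CPM in PBS. In DI150, Tnni1 was at 7.85 and 7.86 CPM and Myom1 at 4.95 and 4.54, with I80 inside or near the PBS values for both.

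Other higher genes had 1 CPM or more in PBS or I80. Aif1l, an actin-binding relative of AIF1, was the clearest (gene 108897, chromosome 2, 31950303 to 31973442). Its level was 24.5 and 24.8 CPM in PBS, 28.5 and 25.3 in I80 but 265 and 263 in DI150. The 4 PBS and I80 libraries clustered together and the DI150 pair stood 10.7-fold above PBS. The promoter windows of Scn10a and Aif1l are shown as those of the largest rise of all and the largest from over 1 CPM in PBS. Each is the 250 bases before the most upstream start held for the gene in the RefSeq promoter table used here (GRCm38.p6), at chr9:119719033-119719282 on the minus strand and chr2:31950053-31950302 on the plus strand, written 5′ to 3′ along the gene with CG pairs in capitals. The Scn10a window lies inside the gene's full span, before a start that is 290 bases in from its 5′ end, and the Aif1l window directly before the gene. Scn10a holds 8 of these pairs and Aif1l 27. Single higher genes differed widely. Whole windows of 300 bases held 53 pairs in Gnai1, which is scarce in PBS, and 9 in the abundant Tinagl1. The median was 6 pairs for 11 windows among the 15 genes under 1 CPM in both PBS and I80. It was 11 for 33 windows among all 42 higher genes. Windows were missing for too many of these genes to compare the pairs with the PBS level.
Scn10a: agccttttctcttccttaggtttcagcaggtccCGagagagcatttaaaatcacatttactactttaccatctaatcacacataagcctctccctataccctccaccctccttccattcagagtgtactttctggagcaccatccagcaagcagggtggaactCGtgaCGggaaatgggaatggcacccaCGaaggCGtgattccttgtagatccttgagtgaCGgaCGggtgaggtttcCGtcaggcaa
Aif1l: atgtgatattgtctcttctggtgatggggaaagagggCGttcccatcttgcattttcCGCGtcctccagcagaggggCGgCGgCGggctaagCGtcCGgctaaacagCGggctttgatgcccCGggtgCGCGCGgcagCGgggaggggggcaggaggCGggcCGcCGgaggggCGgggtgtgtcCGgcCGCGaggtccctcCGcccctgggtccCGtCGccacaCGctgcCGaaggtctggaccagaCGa

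Tinagl1, a secreted matricellular protein, was among the most abundant, with 181 and 178 CPM in PBS, 175 and 171 in I80 but 484 and 491 in DI150 (2.72-fold). Rpa1, the large subunit of the single-strand DNA binding complex of replication and repair, rose 2.29-fold, from 374 and 332 CPM in PBS to 882 and 731 in DI150, with I80 at 398 and 411. It was the only member of the DNA replication list among the 101. Of the 55 tested genes on that list, 6 were called higher, Rpa1 among them, and 34 lower in DI150 than in PBS (32.7% and 36.1% of tested genes were). Cradd, an adaptor that carries both a death domain and a caspase recruitment domain, stood 3.18-fold higher in DI150 (25.9 and 23.1 CPM) than in PBS (7.25 and 8.17), with I80 at 8.0 and 7.25. Tmem144 was 2.71-fold higher (27.5 and 31.9 CPM in PBS, 31.1 and 30.9 in I80, 83.3 and 77.6 in DI150).

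Sgms2, a sphingomyelin synthase of the plasma membrane, was at 32.3 and 37.2 CPM in PBS, 39.6 and 36.4 in I80 but 87.0 and 84.6 in DI150. Tfeb, a transcription factor that controls lysosomal genes, was at 11.1 and 13.8 CPM in PBS, 11.5 and 11.3 in I80 but 29.3 and 29.2 in DI150. The values of both genes separate the DI150 pair from all other libraries, as those of all 101 genes do. Dennd3, a Rab exchange factor, was 2.46-fold above PBS, and Fbxo2, an F-box protein that recognizes glycoproteins, 2.68-fold.

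Srf, Vegfa and Crim1 completed the abundant higher genes, each close to 2-fold. Srf, the serum response factor that drives cytoskeletal and immediate early genes, had 71.7 and 59.2 CPM in PBS, 76.1 and 71.4 in I80 but 135 and 134 in DI150. Vegfa, the main growth factor of blood vessels, had 32.6 and 48.8 CPM in PBS, 46.0 and 49.1 in I80 but 85.2 and 78.5 in DI150. Its PBS libraries differed by more than the I80 and PBS means did. Crim1, a transmembrane protein that binds BMPs, had 108 and 125, 113 and 107, and 226 and 245 CPM.

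The fatty acid and lipid list held 2 of the 101 genes, 8.0% of its 25 tested genes. One was Lpl, and the other was Acsl1, a long-chain acyl-CoA synthetase, at 7.97 and 6.71 CPM in PBS, 7.37 and 7.91 in I80 but 16.6 and 17.3 in DI150. Of the 25, 9 were called higher and 12 lower in DI150 than in PBS (32.7% and 36.1% of tested genes were). Nqo1, a quinone reductase and a textbook NRF2 target, was the only gene of the NRF2 list, with 0.714 and 1.01 CPM in PBS, 0.780 and 1.40 in I80 but 4.38 and 3.21 in DI150. Of the 39 tested NRF2 targets, 33 were called higher in DI150 than in PBS and 31 higher in I80 than in PBS (32.7% and 32.3% of tested genes were). These comparisons share the PBS libraries.

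**Figure D2:**
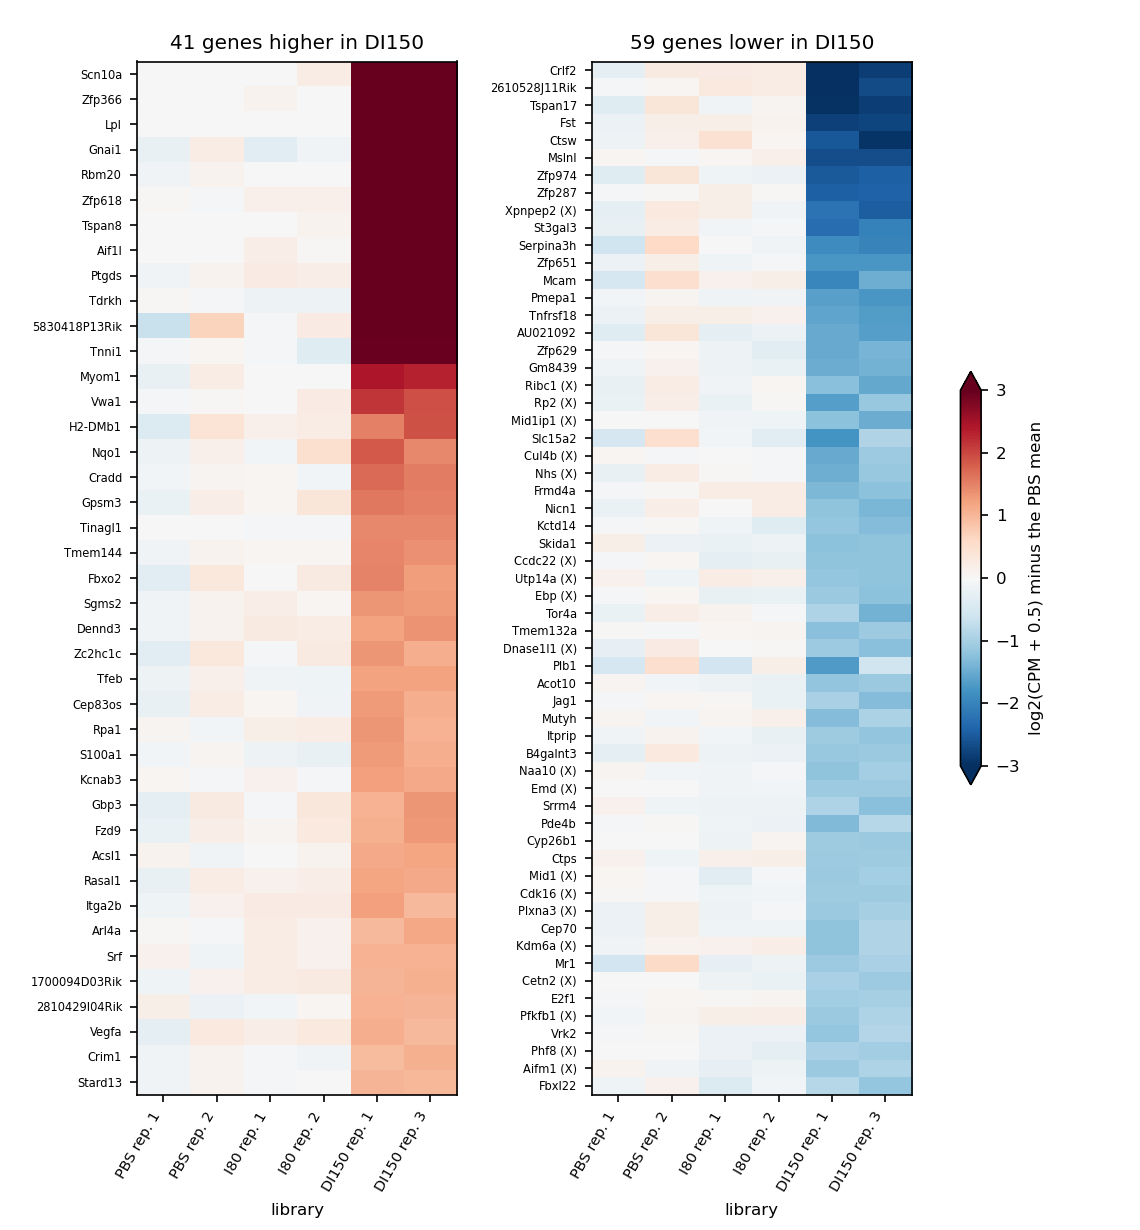
Level of 100 of the 101 genes (41 higher, 59 lower) in each library as log2(CPM + 0.5) minus the PBS mean, ordered by the difference of DI150 from PBS, with X-linked genes marked (X) and colours capped at 3 and -3. The DI150 columns depart from PBS and I80 in every row, and the widest spread between the PBS libraries is seen in 5830418P13Rik, Serpina3h, Mr1 and Plb1.

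Of the 59 lower genes, 10 were lower by at least 4-fold, 1 of them by at least 8-fold, and 43 lay between 1 and 1.5, all on the log2(CPM + 0.5) scale. Their median level over the 6 libraries was 14.1 CPM. Sizes and levels of higher and lower genes are not compared, since a higher gene can pass the 1 CPM limit through DI150 alone and a lower gene cannot. Fst encodes follistatin, the secreted protein that binds and neutralizes activins (gene 14313, chromosome 13, 114452262 to 114458989). It was at 44.3 and 57.3 CPM in PBS, 57.1 and 54.5 in I80 but 6.80 and 7.10 in DI150, 7.31-fold below PBS. Pmepa1, a TGF-beta-induced membrane protein that restrains TGF-beta signalling, was the most abundant of the lower genes. Its libraries were at 303 and 344 CPM in PBS, 297 and 301 in I80 but 104 and 96.6 in DI150, 3.22-fold below PBS. Fst was the only gene of the TGF-beta and BMP list, which does not hold Pmepa1. Of the 40 tested genes on that list, 11 were called higher and 21 lower in DI150 than in PBS (32.7% and 36.1% of tested genes were).

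Among lower genes of 5 CPM or more, Ctsw, a cathepsin best known from cytotoxic lymphocytes, fell from 7.07 and 8.98 CPM in PBS and 11 and 8.28 in I80 to 0.952 and 0.611 in DI150. St3gal3, a sialyltransferase, was at 11.7 and 16.3 CPM in PBS, 13 and 13.5 in I80 but 2.43 and 3.01 in DI150, 5.16-fold below PBS. Mcam, the adhesion molecule CD146, was at 7.55 and 15.7 CPM in PBS, 12 and 12.4 in I80 but 2.43 and 3.66 in DI150. The PBS pair of Mcam was so far apart that the I80 libraries lay between them, and the DI150 libraries lay below both, as for all lower genes. The zinc finger genes Zfp651 (19.4 and 25 CPM in PBS, 6.19 and 6.18 in DI150) and Zfp629 (15.8 and 17.1 CPM, 5.42 and 5.91) were 3.60-fold and 2.90-fold lower. Slc15a2, a peptide transporter, was at 4.58 and 9.70 CPM in PBS and 1.57 and 3.36 in DI150.

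Several scarce genes were nearly lost, and these too were chosen after their values were seen, unless a list held them. Crlf2, the TSLP receptor subunit, fell from 4.62 and 7.04 CPM in PBS and 6.91 and 6.80 in I80 to 0.143 and 0.382 in DI150, 22.2-fold below PBS. Tspan17 fell from 3.12 and 5.42 CPM in PBS to 0.0952 and 0.153 in DI150, and Mslnl, a relative of mesothelin, from 5.64 and 5.10 CPM to 0.428 and 0.420. The I80 levels of both were inside or near the PBS range. The zinc finger genes Zfp287 (2.93 and 3.07 CPM in PBS, 0.143 and 0.153 in DI150) and Zfp974 (1.95 and 3.56 CPM, 0.0476 and 0.0763) were likewise close to 0 in DI150. Tnfrsf18, the costimulatory receptor GITR, was the only cytokine receptor of its list, at 2.86 and 3.72 CPM in PBS, 3.75 and 3.63 in I80 but 0.761 and 0.687 in DI150.

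Abundant lower genes off the X chromosome included Tmem132a, at 268 and 254 CPM in PBS, 272 and 276 in I80 but 109.5 and 122 in DI150. Ctps, the CTP synthase that makes cytidine nucleotides, was at 268 and 222 CPM in PBS, 270.0 and 276 in I80 but 114 and 116 in DI150. Itprip, which modulates the inositol trisphosphate receptor, was at 121 and 139, 122 and 111, and 61.5 and 57.3 CPM. These genes were 2.25-fold, 2.13-fold and 2.19-fold below PBS, with the DI150 pair clear of the other libraries as for all 101 genes. Jag1, a Notch ligand, was at 76.6 and 84.3 CPM in PBS and 40.9 and 32.4 in DI150, the only gene of the Notch list. E2f1, a transcription factor of S phase entry, was at 54.5 and 58.5 CPM in PBS, 57.6 and 59.5 in I80 but 27.0 and 27.9 in DI150. Mutyh, the glycosylase that removes adenine opposite oxidized guanine, was the only gene of the DNA repair list, at 7.37 and 6.51 CPM in PBS, 7.37 and 7.71 in I80 but 2.52 and 3.32 in DI150. Cyp26b1, which breaks down retinoic acid, was 2.17-fold below PBS.

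**Figure D3:**
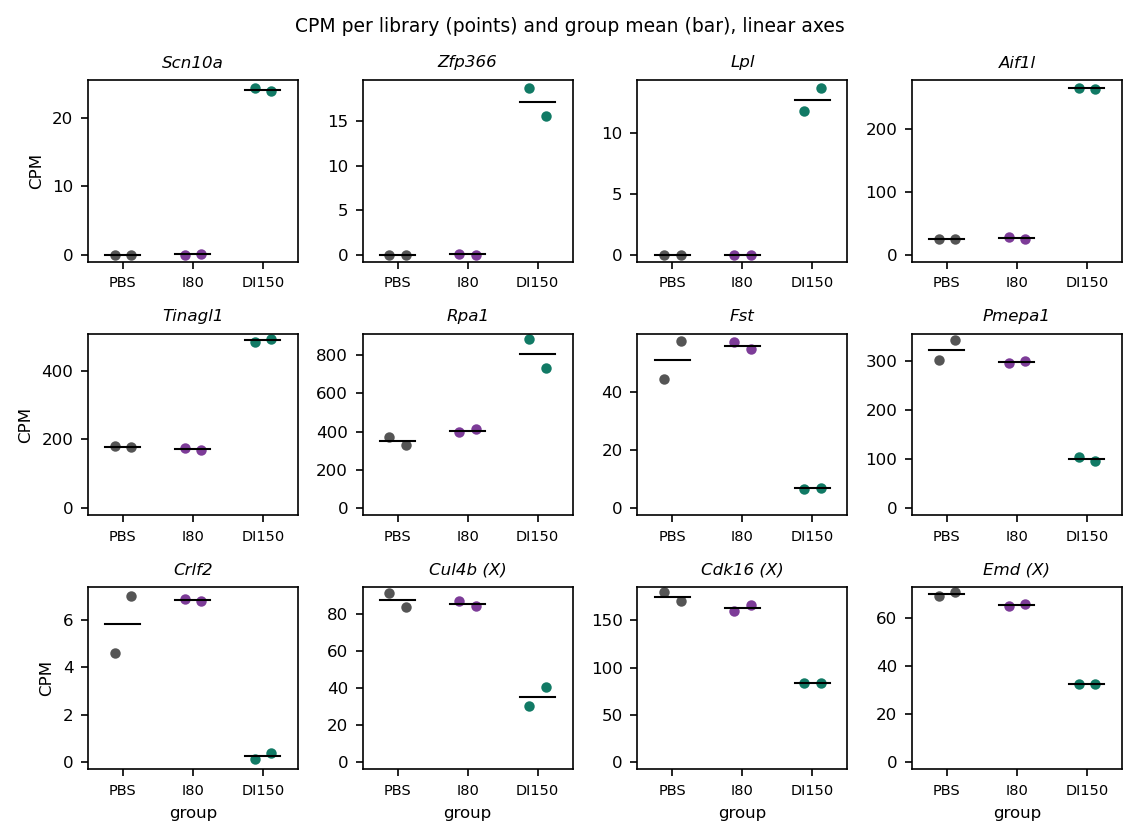
CPM of 12 of the genes in each library (points) with the group mean (bar), on linear axes that include 0. Scn10a, Zfp366 and Lpl sit at or near 0 in PBS and I80, Aif1l, Tinagl1 and Rpa1 are higher in DI150 from a level already present, and the remaining 6 are lower in DI150.

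The lower genes were unevenly spread over the chromosomes. The X chromosome carried 20 of the 59 (33.9%) and none of the 42 higher genes, while it carries 329 of the tested genes (2.88%). Their DI150 level was a median of 44.4% of the PBS level, from 14.5% in Xpnpep2 to 49.3% in Aifm1, and 19 of the 20 were between 1 and 1.5 lower on the log2 scale. In I80 the median ratio to PBS was 0.935. These genes were moderately abundant, with a median of 47.4 CPM in PBS. Cdk16, a PCTAIRE kinase, was at 180.0 and 170.0 CPM in PBS, 160.0 and 166 in I80 but 83.5 and 83.7 in DI150. Cul4b, the scaffold of a ubiquitin ligase (gene 72584, X chromosome, 38531616 to 38576196), was at 91.1 and 83.5 CPM in PBS, 86.9 and 83.9 in I80 but 30.0 and 40.4 in DI150. Emd, which encodes the nuclear envelope protein emerin, was at 68.8 and 70.6, 64.8 and 65.7, and 32.3 and 32.5 CPM. In each of the 3, the I80 libraries lay within or just under the PBS values and the DI150 pair far under both.

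Naa10, the catalytic subunit of an N-terminal acetyltransferase, was at 75.8 and 66.9 CPM in PBS, 65.9 and 69.2 in I80 but 30.6 and 34.7 in DI150. Ebp, a sterol isomerase of cholesterol synthesis, was at 104 and 113, 93.4 and 93.6, and 49.4 and 46.1 CPM. Of the 26 tested genes of cholesterol synthesis, 22 were called lower in DI150 than in PBS (36.1% of tested genes were) and 21 lower in I80 than in PBS (34.2%). Mid1ip1, a regulator of fatty acid synthesis, was at 72.3 and 74.0, 68.0 and 66.9, and 30.8 and 25.9 CPM. Kdm6a, the histone H3 lysine demethylase UTX, was at 47.0 and 55.1 CPM in PBS, 55.3 and 58.7 in I80 but 21.9 and 26.9 in DI150. The next member along the chromosome, Rp2, was at 23.9 and 32.2, 24.1 and 28.3, and 8.47 and 12.4 CPM, with no other tested gene between them. No DI150 library of these genes reached the lowest PBS or I80 library, which holds for all lower genes. Xpnpep2, a membrane aminopeptidase, was the exception in size, at 6.35 and 9.91 CPM in PBS, 9.01 and 7.30 in I80 but 1.33 and 1.03 in DI150.

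The remaining X-linked genes were Aifm1 (the mitochondrial flavoprotein AIF), Phf8 (a histone demethylase), Pfkfb1 (a regulator of glycolysis), Cetn2 (a centrin), Plxna3 (a semaphorin receptor), Mid1 (a ubiquitin ligase), Dnase1l1, Utp14a (a ribosome assembly factor), Ccdc22, Nhs and Ribc1. Their DI150 to PBS differences ran from -1.40 for Ribc1 to -1.01 for Aifm1. The Kdm6a and Phf8 proteins both remove methyl groups from histones. The DNA and histone methylation list does not hold Phf8, and of its 38 tested genes Kdm6a alone was among the 101.

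The shift was wider than the 20 genes. Of the 109 tested X-linked genes within 0.25 of PBS in I80, 105 (96.3%) were below PBS in DI150, against 50.2% of the 3343 such genes elsewhere. Their median difference of DI150 from PBS was -0.63 (quartiles -0.93 and -0.35), and -0.001 elsewhere, and 18.3% against 1.17% passed the 2-fold threshold downward. The 109 include the 20 genes, which the rule itself placed at least 1 below PBS, and shares without them were not counted. Over all 329 tested X-linked genes the median difference from PBS was 0.07 in I80 and -0.46 in DI150. A DI150 median this low was not particular to X, with -0.56 on chromosome 8 and -0.46 on chromosome 15. On those chromosomes the I80 median was low as well (-0.64 and -0.49). The tested X-linked genes took 2.34% and 2.32% of all CPM in PBS, 2.54% and 2.55% in I80 but 1.64% and 1.65% in DI150. Divided into 4 parts of 82 or 83 tested genes in order along the chromosome, X held 7, 8, 0 and 5 of the 20 genes. The part with 0 was also the only one with a median below PBS in I80 (-0.61), and 15 of its 82 genes lay within the I80 interval of the rule.

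Xist itself (X chromosome, 103460373 to 103483233) was at 884 and 917 CPM in PBS, 583 and 524 in I80 but 21.5 and 24.4 in DI150. It fell in both lines and so is not 1 of the 101 genes. Its low level in DI150 thus stood beside lower levels of most X-linked genes there. Whether the gene's reads include its antisense partner Tsix is not given, and Tsix was at 0 to 0.202 CPM. The part of Xist in the levels of the X-linked genes was not tested.

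**Figure D4:**
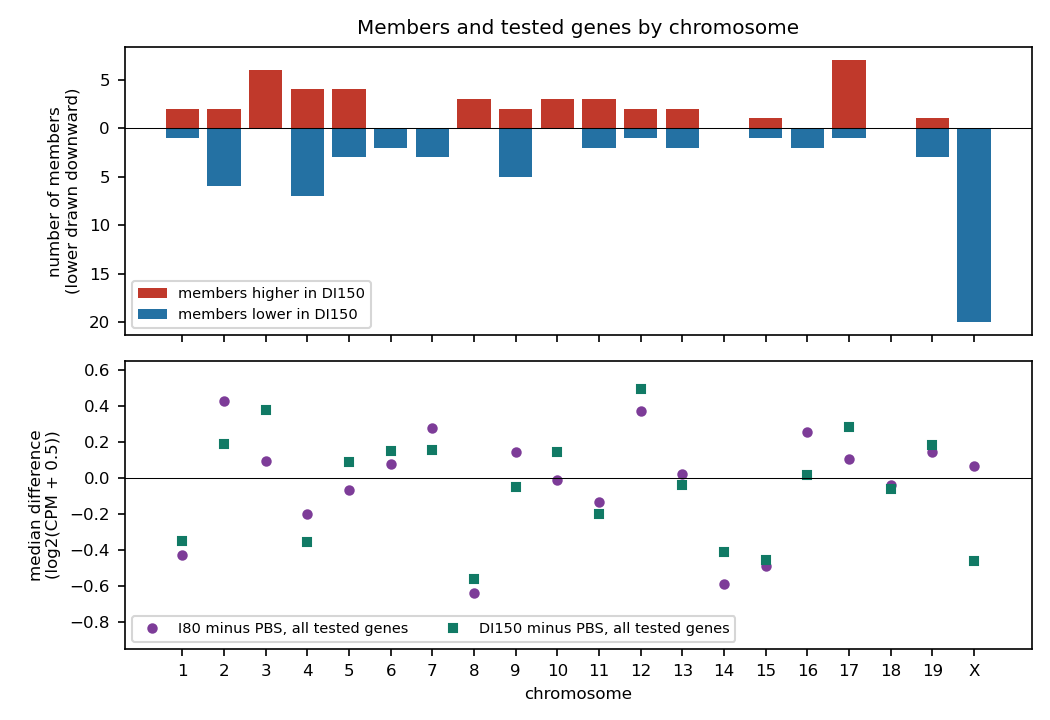
Top, number of the 101 genes on each chromosome, with higher genes drawn upward and lower genes downward. Bottom, median difference from PBS of all tested genes of a chromosome in I80 (circles) and DI150 (squares): on the X chromosome, which carries 20 lower genes, the medians are 0.07 and -0.46. They are -0.64 and -0.56 on chromosome 8 and -0.49 and -0.46 on chromosome 15.

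**Figure D5:**
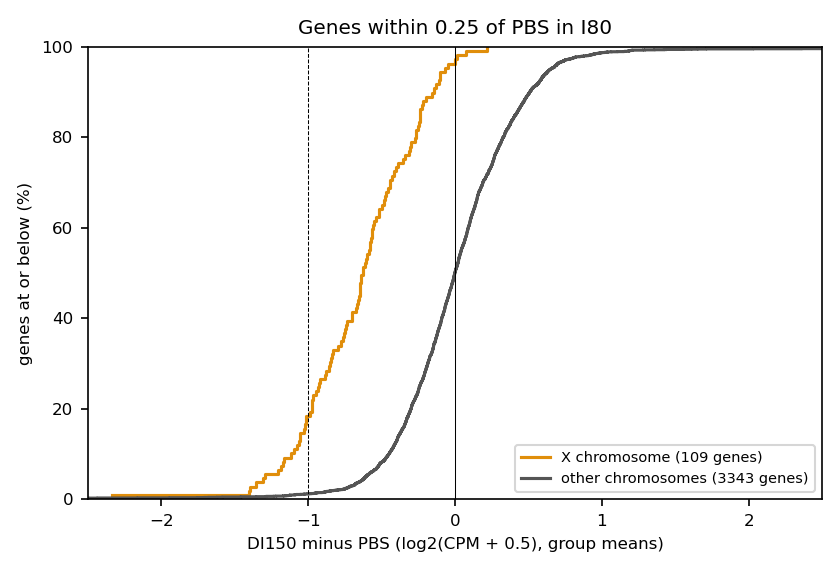
Share of genes (y axis, percent) at or below a given difference of DI150 from PBS (x axis, log2(CPM + 0.5)) among tested genes within 0.25 of PBS in I80. The curve of the 109 X-linked genes lies to the left of that of the 3343 other genes, with medians of -0.63 and -0.001, and the dashed line marks the 2-fold threshold. The 109 include the 20 lower X-linked genes kept by the rule.

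RefSeq promoter windows of 300 bases (250 before the start to 50 after it, GRCm38.p6) were found for 84 of the 101 genes, including all 20 on the X chromosome. The start is the most upstream in the promoter table, which was the 5′ end of the gene's full span for 41 of the 84 and lay inside that span for the other 43. The letters CCAAT, read on either strand and so also as ATTGG, occurred in 14 of those 20 windows (70.0%). They occurred in 139 of the 289 windows of tested X-linked genes (48.1%) and in 38.0% of the 27025 genes in the promoter table. Other short strings were counted too, and CCAAT is shown because its excess was the largest in percentage points, though not as a ratio, so nothing is read from it. Some of the others were rarer than among tested X-linked genes (GGGCGG, 55.0% against 63.7%). Some were more frequent (TGACGTCA, 5.0% against 1.38%). CG pairs did not set the 20 genes apart from their chromosome. A CG content above 0.6 of that expected from the bases was found in 14 of 20 (70.0%) and in 66.1% of tested X-linked genes. A match of this kind is a string of letters and not a binding site, and no test was made. Windows were found for 33 of the 42 higher genes (78.6%) and 31 of the 39 lower genes off the X chromosome (79.5%), under the 80% set for such a comparison, which is therefore void for them. Windows of Cul4b, Cdk16 and Naa10, each with CCAAT in capitals (as ATTGG where it is on the other strand), are given as the 250 bases before the start, 5′ to 3′ along the gene. The Cdk16 window reaches 37 bases into the gene's full span, and the other two end where their genes begin. They lie at chrX:38576197-38576446 on the minus strand, chrX:20687704-20687953 on the plus strand and chrX:73921945-73922194 on the minus strand, and hold 1, 3 and 2 matches.
Cul4b: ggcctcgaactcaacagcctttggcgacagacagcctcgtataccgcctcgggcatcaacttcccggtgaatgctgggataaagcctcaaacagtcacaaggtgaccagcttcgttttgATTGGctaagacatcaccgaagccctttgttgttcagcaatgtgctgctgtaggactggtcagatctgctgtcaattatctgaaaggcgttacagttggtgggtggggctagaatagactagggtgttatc
Cdk16: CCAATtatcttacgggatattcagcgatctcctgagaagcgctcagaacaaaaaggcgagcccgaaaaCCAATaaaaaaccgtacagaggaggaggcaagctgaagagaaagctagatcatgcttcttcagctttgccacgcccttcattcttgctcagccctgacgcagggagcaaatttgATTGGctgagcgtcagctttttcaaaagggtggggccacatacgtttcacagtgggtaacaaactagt
Naa10: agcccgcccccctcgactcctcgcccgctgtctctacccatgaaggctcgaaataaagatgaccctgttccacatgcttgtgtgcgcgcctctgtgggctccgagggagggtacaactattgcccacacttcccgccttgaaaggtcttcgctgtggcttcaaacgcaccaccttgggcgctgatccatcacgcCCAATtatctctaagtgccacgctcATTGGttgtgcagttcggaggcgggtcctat

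Off the X chromosome the spread was less uneven. Chromosome 17 carried 7 of the 42 higher genes (16.7%, against 4.98% of tested genes), among them Tfeb, Srf, Vegfa, Crim1, Myom1, Gpsm3 and H2-DMb1, and 1 lower gene, Mslnl. Chromosome 3 carried 6 higher genes (14.3% against 4.84%) and no lower one, and chromosome 4 carried 7 of the lower genes (11.9% against 6.40%) and 4 of the higher genes (9.52%). The medians of tested genes within 0.25 of PBS in I80 were 0.22 on chromosome 17, 0.21 on chromosome 3 and -0.25 on chromosome 4 in DI150. The highest such median was 0.29, on chromosome 12, which carried 2 higher genes and 1 lower gene. Chromosome 16 had -0.20 and 2 lower genes. A link of these medians to the counts was not tested. Chromosomes 14 and 18, with 3.21% and 2.76% of tested genes, carried none of the 101 genes. At such small shares nothing is read from that. Ctps and Gm8439 on chromosome 4 were the other pair of neighbours with no tested gene between them, and both were lower.

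The 101 genes were also set against 59 gene lists written for this comparison. Of the lists, 32 held none of them and 22 exactly 1, and 69 of the genes were in no functional list. With 0.884% of tested genes kept by the rule, most lists are too small to expect more than 1, so nothing is read from these counts. The share of all tested genes in no functional list was not counted. The zinc finger list held 6 of 354 tested genes (1.69%, against 0.884% of all tested genes), as many as the list of predicted genes and clone names (6 of 405, 1.48%). Of the zinc finger genes, Zfp366 and Zfp618 were higher and Zfp287, Zfp974, Zfp651 and Zfp629 lower. Zinc finger genes are a large family of similar sequences, and the levels of single members are uncertain where reads map to several copies. The same holds for Serpina3h, a transcribed pseudogene in a cluster of close relatives, for H2-DMb1 beside H2-DMb2, and for Acot10, a close relative of the X-linked Acot9. Of the 101 genes, 97 are protein-coding, and the lncRNAs are 5830418P13Rik, Cep83os and 2810429I04Rik.

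The thresholds cut through a continuum. Stard13, just inside the 2-fold limit at 1.003, and Fbxw4, just outside at 0.993, differ little, as do Fbxl22 at -1.004 and Ell3 at -0.992. At the edge of the I80 interval, Ctsw (0.24999) and Vegfa (0.248) were inside, and Stk10 (0.251) and Pcdhb21 (0.252) just outside. By level, Kcnab3 and Serpina3h were inside at 1.03 and 1.04 CPM, and Zbtb8b and Zdhhc15 outside at 0.874 and 0.802 CPM. In all, 22 of the 101 genes lay within 0.05 of the edge of the I80 interval, with 22 genes as close outside it, and 25 within 0.1 of the 2-fold limit, with 41 as close outside.

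The 101 genes were noisier than tested genes at large. PBS libraries differed by more than 0.25 on the log2 scale in 46.5% of them, against 29.0% of tested genes, and DI150 libraries in 27.7% against 13.5%. A mean under 5 CPM was found for 36.6% of them and for 11.8% of tested genes. With each library left out in turn, 29 of the 101 stayed within the rule every time, 17 higher and 12 lower. The higher ones included Scn10a, Zfp366, Lpl, Aif1l and Tinagl1, and the lower ones Pmepa1, Tmem132a, Cyp26b1, Mslnl and, on the X chromosome, Cdk16, Cul4b, Emd, Naa10, Nhs and Mid1ip1. Without either PBS library, 57 of the 101 stayed. With 0.1 or 1 CPM as the value added before taking log2, 70 stayed both times. Scn10a, Gnai1, Zfp618 and Tdrkh each stayed with only 1 of these values, and Zfp366, Lpl, Aif1l and Tinagl1 with both. The added value understates differences of scarce genes, including those of I80 from PBS. Under all 11 settings (libraries left out, scalings and added values), 17 of the 101 stayed, 8 higher and 9 lower.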

How the data were processed

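Total RNA of 6 samples (3 lines, 2 libraries each) was depleted of ribosomal RNA and sequenced as single 81-base reads, per the labels' protocols. STAR and the mm10 build are named in the submitters' processing notes. No version, counter, annotation or use of strand was given in the sources. The deposited values are CPM (reads per 1000000 assigned reads). Each value was a whole number of reads within 0.001 reads (100% of 146724 values), and library totals were 21017849 to 26608715. The DI150 column numbered 3, a number the labels do not use, was taken as a DI150 library (replicate 3).

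Gene numbers were matched to RefSeq GRCm38.p6 (24374 of 24454). Differences are between group means of log2(CPM + 0.5), which understates the change of scarce genes, and folds are ratios of mean CPM. Against 0 reads, a floor of 3 reads per library gives a lower bound. Against 1 to 3 reads in a group, pooled reads are compared with an exact 95% interval, and both cover counting error only. Background shares come from limma 3.58.1 (R 4.3.3; trend, all 3 groups in 1 fit, two-sided, Benjamini-Hochberg adjusted p under 0.05) over the 11428 tested genes (mean of 1 CPM or more), checked on simulated data. Its p-values rest on library-to-library spread alone. Recovered reads were also tested with edgeR 4.0.16 and DESeq2 1.42.0.

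Genes named are the 12 largest rises and 12 largest falls with a mean of at least 5 CPM, the 6 most abundant each way, up to 4 genes per list, and the genes nearest each threshold or next to each other. Others were chosen after their values were seen. The 101 genes and the lists were chosen with earlier results of these data known. Of the higher genes, 1 counts in the totals but is not reported here by name.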

Additional observations from a re-analysis of the deposited data

How the results depend on the processing

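The number of genes depends on the limits of the rule. A mean of at least 5 CPM left 64 genes (20 higher), and no limit on level gave 66 higher genes. With an I80 interval of 0.15 there were 52 genes (23 higher, 29 lower, 11 on the X chromosome), and with 0.5 there were 222 (97 higher, 125 lower). A 1.5-fold limit gave 489 genes (243 higher, 246 lower, 60 X-linked) and a 3-fold limit 32 (17 higher, 15 lower, 1 X-linked). The X-linked count was added after positions were seen. It was 20 under TMM and median-of-ratios scaling and 13 under quantile normalization, where 88 genes passed, 44 of them among the 101, with 48.9% of them higher against 41.6%. Under that scaling the median DI150 difference of tested X-linked genes was -0.36, against -0.46. Leaving out each library in turn gave 91 to 110 genes, 44 to 50 higher, 47 to 65 lower and 14 to 22 X-linked. Of 2552 differences of single genes recomputed, 143 moved by more than the replicate spread, and no DI150 difference changed sign.

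Genes called by limma between DI150 and I80 numbered 5008, and 2487 to 5972 with each library left out, lowest without I80 replicate 2 (2541 without I80 replicate 1, 3012 without DI150 replicate 1). The lone sample of a group is then assumed to vary like the others. Deviations by replicate number correlated at 0.02 for PBS and I80. With DI150 replicate 3 taken as the second replicate, they correlated at -0.06 for PBS and DI150 and 0.21 for I80 and DI150. These values do not settle if replicate numbers pair the samples. A replicate block with DI150 replicate 3 as a level of its own gave 2688 calls between DI150 and I80, 6284 between DI150 and PBS and 7175 between I80 and PBS. With DI150 replicate 3 taken as the second replicate, the block gave 4903, 7814 and 7560. edgeR on recovered reads called 7852, 7610 and 4997 genes for DI150 against PBS, I80 against PBS and DI150 against I80, and DESeq2 7496, 7341 and 4739. With 2 libraries per group and 1 read worth 0.0376 CPM or more, levels under 0.113 CPM rest on fewer than 3 reads.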
